A study of Mus musculus with 44 samples.

Results

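The strongest CTCF sites held in both cell states of mouse embryonic stem cells (ESCs) were described: 1393 of 40937 autosomal one-to-one pairs of CTCF peaks (3.40%). A pair was a peak of the *Setdb1* KO list and a peak of the WT list that overlapped each other by at least 1 bp and overlapped no other peak. A pair belonged to the strong sites when the pileup, the number of sequenced fragments over the summit, was at least 110 in *Setdb1* KO and at least 90 in WT, with a ratio between 0.9 and 2.5. The sites were thus selected on their pileups and ratio, and pileups, ratios and peak sizes are given as a description. The series asked how H3K9 methylation by SETDB1 bears on CTCF binding and genome folding. Its *Setdb1* KO ESCs were TT2 (C57BL/6/CBA F1) cells with a conditional *Setdb1* allele, deleted by 4 days of 800 nM 4-OHT, and were collected on day 6. The WT ESCs were of the same strain, were described in the study as 1 clone, and had no 4-OHT in the protocol given. Crosslinked chromatin was precipitated with an antibody to CTCF, and 1 library per genotype was analysed, so no difference between genotypes has a replicate check and no p-value was computed.

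CTCF is a zinc finger protein that binds a long directional DNA motif and holds the cohesin ring as it extrudes chromatin, so that loops tend to form between motifs that face each other. Binding is sensitive to cytosine methylation at CpG positions inside the motif. Many CTCF sites are occupied in most cell types, while weaker sites vary with cell state.

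The strong sites differed from other CTCF sites in their sequence. The following sites were shown because, among strong sites with a low background, they were the 9 best with 2 or more motifs on chromosomes other than the one that holds *Ctif*. They were chosen after their values were seen. Each is the plus strand of mm10 (GRCm38.p6, RefSeq), with both 14-base motif cores in capitals. A core that begins with CC as printed points right, and one that ends with GG points left.
Gdf15 coding exon, chr8:70629888-70629959: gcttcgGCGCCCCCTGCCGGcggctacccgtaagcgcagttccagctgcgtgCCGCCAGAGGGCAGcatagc
Vps36 promoter, chr8:22192749-22192823: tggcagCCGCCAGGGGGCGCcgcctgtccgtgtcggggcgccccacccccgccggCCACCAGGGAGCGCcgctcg
Nipsnap2 promoter, chr5:129724955-129725014: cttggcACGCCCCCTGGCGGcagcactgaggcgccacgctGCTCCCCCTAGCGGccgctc
Near Ccdc60, chr5:116116659-116116736: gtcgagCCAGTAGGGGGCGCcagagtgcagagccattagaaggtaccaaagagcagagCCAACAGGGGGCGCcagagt
Near Rbm19, chr5:120102924-120102995: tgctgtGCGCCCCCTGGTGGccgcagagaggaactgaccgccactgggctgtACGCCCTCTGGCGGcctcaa
Gse1 intron, chr8:120319628-120319715: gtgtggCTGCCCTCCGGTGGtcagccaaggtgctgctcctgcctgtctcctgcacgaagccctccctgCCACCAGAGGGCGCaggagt
Zfp384 promoter, chr6:125030696-125030772: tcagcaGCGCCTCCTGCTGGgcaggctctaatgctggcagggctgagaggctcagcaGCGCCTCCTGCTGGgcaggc
Near Caln1, chr5:130853524-130853595: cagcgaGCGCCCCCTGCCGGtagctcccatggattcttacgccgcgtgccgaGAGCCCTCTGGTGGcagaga
Near Kcnk18, chr19:59239626-59239695: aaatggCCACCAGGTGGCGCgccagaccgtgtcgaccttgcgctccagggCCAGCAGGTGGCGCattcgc

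The next sites carried 1 motif or none at the threshold used, and are shown in the direction of their best core (capitals), from the same genome. *H2-DMa*, *Pik3r2* and *Ccr1* are examples with 1 motif, *1500009C09Rik* has the most frequent core of all strong sites, *Gm15319* and *Gm31371* are near-copies of each other, and *Ano1* and *Coa5* lacked a motif.
H2-DMa promoter, chr17:34135406-34135445, plus strand: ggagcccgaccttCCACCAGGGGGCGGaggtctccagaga
Pik3r2 promoter, chr8:70769541-70769580, minus strand: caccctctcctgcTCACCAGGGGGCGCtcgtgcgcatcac
Near Ccr1, chr9:123925430-123925469, plus strand: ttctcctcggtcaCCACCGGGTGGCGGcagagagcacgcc
1500009C09Rik coding exon, chr15:82259694-82259733, minus strand: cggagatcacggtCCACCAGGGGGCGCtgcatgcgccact
Nearest coding gene Gm15319, chr8:20424855-20424894, minus strand: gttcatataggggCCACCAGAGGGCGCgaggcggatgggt
Nearest coding gene Gm31371, chr8:19979931-19979970, plus strand: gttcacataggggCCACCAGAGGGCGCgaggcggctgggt
Ano1, chr7:144697005-144697044, minus strand: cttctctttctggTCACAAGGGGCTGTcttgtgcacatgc
Coa5 exon, chr1:37419584-37419623, plus strand: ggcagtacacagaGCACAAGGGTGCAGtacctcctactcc

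The lists held 59698 peaks in *Setdb1* KO and 44241 in WT, of which 58087 and 43284 were autosomal. The lowest background, the mean fragment coverage of the genome, was 2.19 fragments in *Setdb1* KO and 2.1 in WT. This value depends on the fragment length and scaling of the peak caller as well as on depth. Read totals were not analysed here. The pileup of the strong sites had a median of 129 in *Setdb1* KO (quartiles 118 to 142, range 110 to 374) and of 102 in WT (quartiles 95 to 112, range 90 to 362). All other pairs had medians of 54 in *Setdb1* KO and 37 in WT. The median ratio of *Setdb1* KO to WT was 1.24 at the strong sites (quartiles 1.17 to 1.33) and 1.37 at the other pairs. A ratio of 1.5 or more was found at 54 strong sites (3.88%), beside 35.0% of all pairs, a contrast that the selection itself used. The ratio was below 1 at 11 sites, which the thresholds allowed only where the WT pileup was above 110. Pileups were not scaled between the libraries, so a ratio of 1 is not a reference for no change. Intervals given beside single ratios are exact Clopper-Pearson 95% intervals and, like all intervals given here, cover counting error only.

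**Figure D1:**
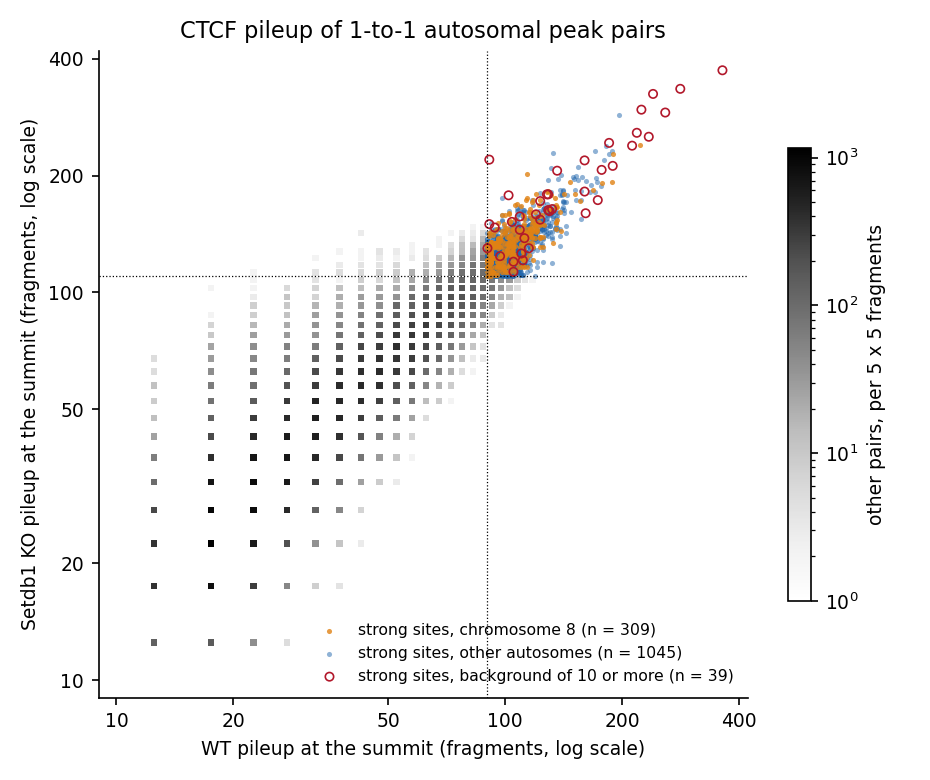
Pileup of each one-to-one autosomal CTCF peak pair in *Setdb1* KO ESCs (vertical axis, fragments at the summit) and WT ESCs (horizontal axis), both on log scales. Dots are strong sites with a background under 10 (orange on chromosome 8, blue on other autosomes), red circles the 39 with a background of 10 or more, grey squares the number of other pairs per 5 by 5 fragments, and dotted lines the thresholds of 110 and 90. The highest point is *Gm26917*, with 374 in *Setdb1* KO and 362 in WT.

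Near the threshold the values ran on without a break. Just inside it, the site in *Fam178b* had a pileup of 116 in *Setdb1* KO and 90 in WT, the site near *Agfg1* 110 and 90, and the site in *Kcnj10*, an inwardly rectifying potassium channel gene, 123 and 90. Just outside it, the site nearest to *Fam135a* had 109 in *Setdb1* KO and 93 in WT, the site at *Eif2d* and *Rassf5* 109 and 97, and the site in *Map3k20* 109 and 98.

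The very highest pileups stood on a high background. The site in the lincRNA gene *Gm26917* (chr17:39845110-39845553) had a pileup of 374 in *Setdb1* KO and 362 in WT, over a background of 162 and 173. The site in *Drg1* and *Sfi1*, 246 bp from a start of *Sfi1* (chr11:3192448-3193417) had 335 in *Setdb1* KO and 282 in WT over 89.9 and 78.8, and the *Sfi1* coding exon (chr11:3185783-3186208) had 325 and 240 over 72.5 and 50.4. None of these 3 sites had a CTCF motif at the threshold, and fold enrichment at *Gm26917* was only 2.30 in *Setdb1* KO and 2.09 in WT. Next came a site 22.4 kb from *4930467E23Rik* (chr8:19706810-19707773; 291 in *Setdb1* KO and 258 in WT) and a site with a motif 188 kb from *Samd9l* (chr6:3183561-3184286; 296 and 224). The sites 61.7 kb from *Gm15319* (chr8:20424671-20425111; 252 in *Setdb1* KO and 234 in WT) and 54.2 kb from *Gm31371* (chr8:19979706-19980233; 258 and 218) differed at 2 of the 40 positions printed above. A site 468 kb from *Olfr161* (chr16:3122814-3123456) had 239 in *Setdb1* KO and 212 in WT with no motif at the threshold. A background of at least 10 fragments in either library was found at 39 strong sites (2.80%) on 11 chromosomes, against 0.08% of other pairs, and 15 of the 39 had a motif (38.5%). Their fold enrichment had a median of 10.4 in *Setdb1* KO and 8.03 in WT. The authors kept uniquely aligned reads only. Whether such sites are collapsed repeats in the assembly was not tested. The shares by pileup level leave out sites with such a background, which leaves 1354 strong sites, while all other shares and medians rest on all 1393.

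Among the 1354 sites with a lower background, pileups reached 287 in *Setdb1* KO and 222 in WT. The first of them was an intron of *Ctif*, a translation initiation factor gene (chr18:75599479-75600330), with 287 in *Setdb1* KO and 196 in WT. The ratio there was 1.46 (95% interval 1.22 to 1.76), the fold enrichment was 87.9 in *Setdb1* KO and 54.2 in WT, and the sequence held 4 motifs. *Gdf15*, which encodes a stress-induced cytokine of the TGF-beta family, had its site in a coding exon (chr8:70629413-70630801), with 240 in *Setdb1* KO and 222 in WT. Its ratio of 1.08 had an interval of 0.90 to 1.30. That interval includes 1, which is not a reference for no change, and 1.26, the median ratio of the strong sites on chromosome 8. It lies below 1.38, the median ratio of all pairs there, but the selection of strong sites used the ratio.

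Further sites of this high group, named after their values were seen, lay at promoters. The promoter of *Vps36*, an ESCRT-II subunit (chr8:22192512-22193431, summit 12 bp from the start), had 227 fragments in *Setdb1* KO and 189 in WT, with an interval of the ratio of 0.99 to 1.46. The *Nipsnap2* promoter (chr5:129724574-129725206, 66 bp from the start) had 227 and 185, with a lower limit of the ratio of 1.01. *H2-DMa*, which helps to load peptides on MHC class II molecules, had 197 in *Setdb1* KO and 171 in WT at its promoter (chr17:34135131-34135748). *Pik3r2*, a regulatory subunit of phosphoinositide kinase, had 191 and 177 (chr8:70769007-70769909), and *Zfp384*, a zinc finger factor, 193 and 172 (chr6:125030319-125031138). All 5 had more fragments in *Setdb1* KO than in WT, at ratios of 1.08 to 1.23. This was the direction of nearly all strong sites, whose median ratio was 1.24, with a ratio below 1 at 11 of 1393. Inside *Apbb2*, which encodes an adaptor of the amyloid precursor protein, a site 498 bp from the start of the RNA gene *Gm23183* had 229 in *Setdb1* KO and 133 in WT (chr5:66326309-66327019) and no motif at the threshold.

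Away from promoters, the site 36.6 kb from *Ccr1*, a chemokine receptor gene (chr9:123925170-123925745), had 231 in *Setdb1* KO and 188 in WT. The site 7.93 kb from *Ccdc60* (chr5:116116469-116117207) had 232 and 170, and the site 13.5 kb from *Rbm19*, which acts in ribosome biogenesis (chr5:120102665-120103527), 219 and 179. The intron of *Gse1* (chr8:120319252-120320031) had 193 in *Setdb1* KO and 188 in WT, and a site 6.13 kb from *Caln1*, a neuronal calcium sensor gene (chr5:130853111-130853800), 188 and 176. *Ezh2*, which encodes the H3K27 methyltransferase of Polycomb, had a strong site only at a distance of 55.9 kb, with 199 and 158. *Trpm8* introns had 239 and 182 (chr1:88284507-88285400) and, over a background of 12.6 in *Setdb1* KO and 7.57 in WT, 243 and 185 (chr1:88289673-88290741).

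**Figure D2:**
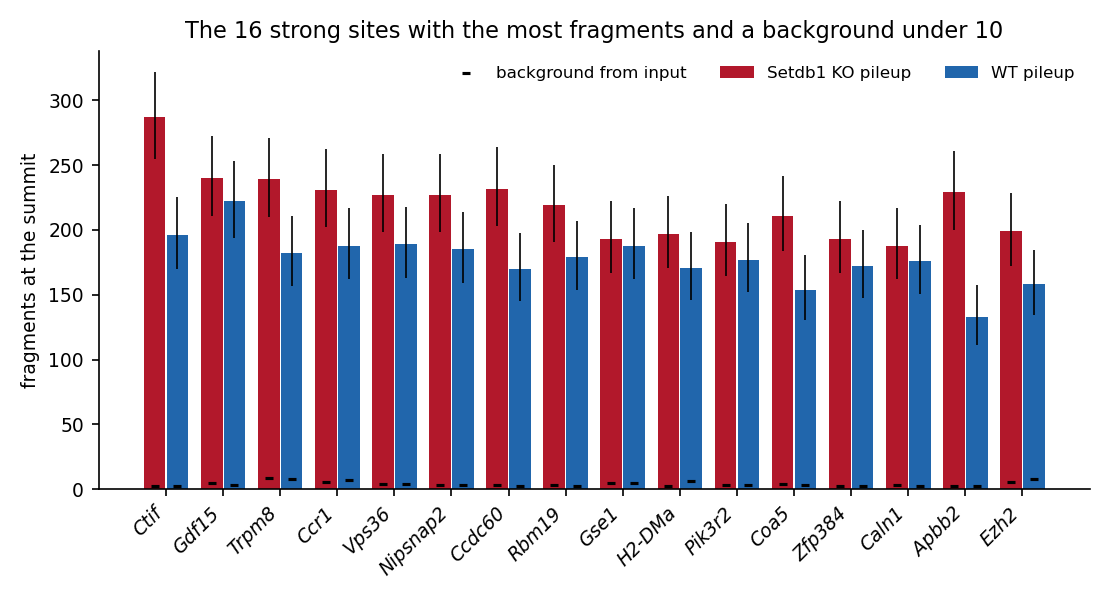
Pileup (fragments at the summit) at the 16 strong sites with the highest summed pileup and a background under 10, *Setdb1* KO bars left of WT bars. Error bars are exact Poisson 95% intervals of the single library, and black dashes mark the background. KO bars reach from 188 (near *Caln1*) to 287 (*Ctif*) and WT bars from 133 (*Apbb2*) to 222 (*Gdf15*).

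The ratio reached its extremes at a few sites. A masked exon of the *Ugt1a* cluster, whose genes encode glucuronosyltransferases (chr1:88217091-88217566), had 220 in *Setdb1* KO and 91 in WT over a background of 14.5 and 10.5, and the highest ratio, 2.42 (1.89 to 3.12). The site 4.86 kb from *Sh3pxd2b*, a podosome adaptor gene, had 175 and 98 (1.79, 1.39 to 2.31), and an intron of the read-through model *Gm20388* 202 and 114 (1.77, 1.40 to 2.25). At the low end, an intron of the orphan receptor gene *Gpr153* had 119 in *Setdb1* KO and 132 in WT (0.90, 0.70 to 1.16). An exon of *Traf4*, a signalling adaptor gene, had 110 and 119 (0.92, 0.71 to 1.21), and *Gm20219* 132 and 138 (0.96, 0.75 to 1.22). The intervals at the 3 lowest sites include 1, which is not a reference for no change, and lie below 1.24, the median ratio of the strong sites. These sites were picked as the lowest of 1393, so their single intervals do not measure how unusual they are. None of these 3 had a motif at the threshold of 17.1 bits. Their best cores scored 14.5 (*Gpr153*), 17.0 (*Traf4*) and 14.2 bits (*Gm20219*), above the 95th percentile of control windows (9.59).

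Peaks of the strong sites were longer and their summits more stable in position. Median peak length was 629 bp in *Setdb1* KO and 540 bp in WT, against 437 and 344 bp at the other pairs. The summits in *Setdb1* KO and WT lay a median of 12 bp apart at the strong sites and 19 bp apart at the other pairs, and within 20 bp of each other at 76.2% against 52.6%. Among pairs that were not strong, this share also went up with the WT pileup used for selection. It was 40.4% under 30, 55.9% at 30 to 59 and 67.6% at 60 to 89. The fold enrichment had a median of 29.8 in *Setdb1* KO and 24.7 in WT.

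A CTCF motif lay within 50 bp of the WT summit at 1093 strong sites (78.5%, Wilson 95% interval 76.2 to 80.5). The share was 72.7% at pairs with a WT pileup of 60 to 89 and 54.5% (54.0 to 55.0) at all pairs that were not strong. The matrix was built from pairs that were not strong sites, and a motif had to score above the 99th percentile of control windows that lay 1 kb left of each summit, 5.21% of which were near a listed peak. With windows clear of peaks the shares were 88.6% of strong sites and 68.9% of the other pairs. At the 95th percentile, 94.7% of strong sites and 82.7% of the others had a motif, leaving 74 strong sites with none. When called, the motif lay a median of 12 bp from the summit at strong sites and 15 bp at the others. Some of the highest sites had none at the main threshold. An exon of *Coa5*, a cytochrome oxidase assembly factor gene, had 211 in *Setdb1* KO and 154 in WT (chr1:37419375-37419903) without one. By summed pileup, among sites with a low background, *Apbb2*, *Hpca*, a neuronal calcium sensor gene (189 in *Setdb1* KO and 166 in WT), *4930509E16Rik* (181 and 170) and *Ano1*, a calcium-activated chloride channel gene (199 and 149), came next.

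The motifs of the strong sites held more CpG. Positions were counted from 1 at the 5′ end of the 14-base core. A CpG began at position 12 in 61.5% of strong motifs (58.6 to 64.3), in 46.8% of motifs at pairs with a WT pileup of 60 to 89, and in 35.8% at all pairs that were not strong. A CpG began at position 2 in 10.6%, 5.26% and 2.81% of these 3 sets in the same order. Neither position had a CpG in 36.0% of strong motifs and 63.1% of the others, and both had one in 8.05% and 1.75%. The *Gdf15*, *Vps36* and *Caln1* sites above each show both in a core. Within 100 bp of the summit, GC content had a median of 53.2% at strong sites and 47.8% at the others, with a median of 4 CpG against 2. Away from promoters the difference at position 12 was 58.5% against 34.6%. Methylation of these sites was not analysed here.

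The strong sites drew on many different cores. Their 1093 motifs held 417 different cores, 256 of them seen once. The most frequent, CCACCAGGGGGCGC, is the core of the *1500009C09Rik* site and of sites near *Rbm19*, *Zfp423* and *Dnmt3c*. It stood at 45 strong sites and 99 others, so that 31.2% (24.2 to 39.2) of all sites called with it were strong. The second, CCAGCAGGGGGCGC, stood at 44 strong sites and 130 others (25.3%). By contrast CCAGAAGAGGGCGC, called at 935 pairs that were not strong, stood at 17 strong sites, 1.79% (1.12 to 2.84) of its total. Position 8 was G in 70.0% of strong motifs and 38.3% of the others.

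Sites with 2 or more motifs were a minority of the strong sites but more frequent than among the other pairs, a pattern chosen for description after the values were seen. Within 150 bp of the WT summit, 96 of the 1393 strong sites (6.89%, 5.68 to 8.34) had 2 or more motifs, against 0.89% of pairs with a WT pileup of 60 to 89 and 222 (0.56%) of all pairs that were not strong. At sites with a background under 10 the share by WT pileup was 0.422% under 30, 0.505% at 30 to 59 and 0.894% at 60 to 89. Among strong sites it was 3.49% at 90 to 99, 6.91% at 100 to under 130 and 28.7% (20.8 to 38.2; 29 of 101) at 130 or more. With the lower motif threshold of the clear windows, the share of strong sites was 12.2%. At the 96 sites the pileup had a median of 148.5 in *Setdb1* KO and 117 in WT, against 127 and 102 at 1043 strong sites with 1 motif and 128.5 and 101 at 254 with none, counting motifs within 150 bp. The median ratio was 1.26, 1.24 and 1.24.

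The 2 cores of the strong sites lay closer together. Between the starts of the 2 best cores the median was 58 bp at strong sites (quartiles 46.0 to 86.2) and 113.5 bp at the other pairs (67.2 to 152), and 42 of 96 strong sites (43.8%, 34.3 to 53.7) had 40 to 59 bp, against 22 of 222 (9.91%, 6.64 to 14.5). The distance was 46 bp near *Rbm19*, at *Gdf15* and near *Caln1*, 49 bp at *Vps36*, 51 bp at *Zfp384* and 52 bp near *Ccdc60*. Both cores pointed the same way at 69 of the 96 (71.9%, 62.2 to 79.9), as at *Vps36* and *Zfp384*, and at 144 of 222 other pairs (64.9%). They pointed away from each other at 16, including *Gdf15* and *Gse1*, and towards each other at 11. More than 2 motifs were found at 7 strong sites. At *Kcnk18*, a potassium channel gene, the site 2.29 kb away had cores 44 bp apart and a pileup of 195 in *Setdb1* KO and 154 in WT.

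**Figure D3:**
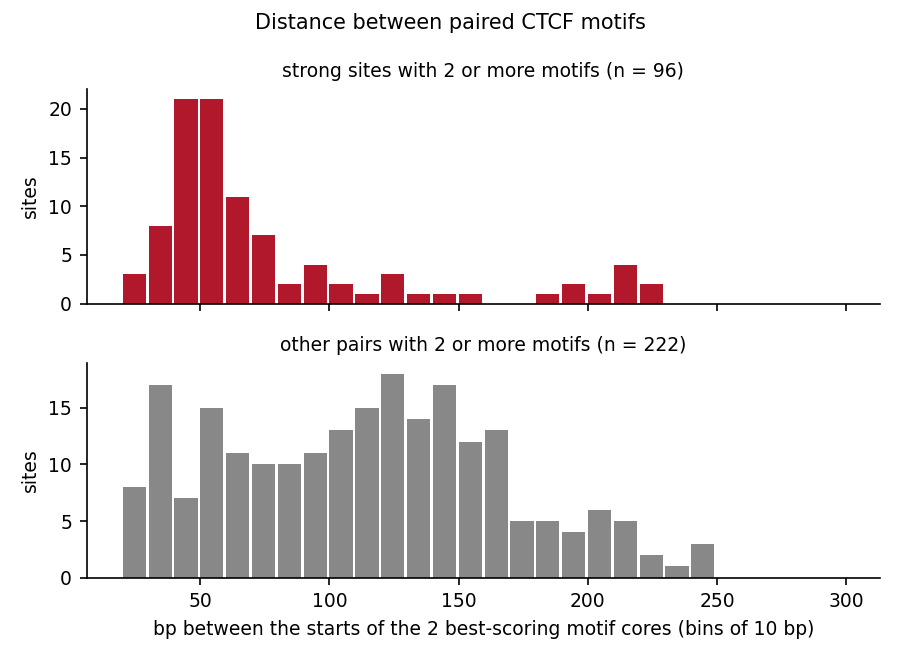
Distance in bp between the starts of the 2 best motif cores (horizontal axis, bins of 10 bp) at sites with 2 or more motifs within 150 bp of the WT summit, with the number of sites as bars, for the 96 strong sites above and the 222 other pairs below. The strong sites peak at 40 to 59 bp (43.8%), and most other pairs lie at 100 bp or more (59.9%).

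**Figure D4:**
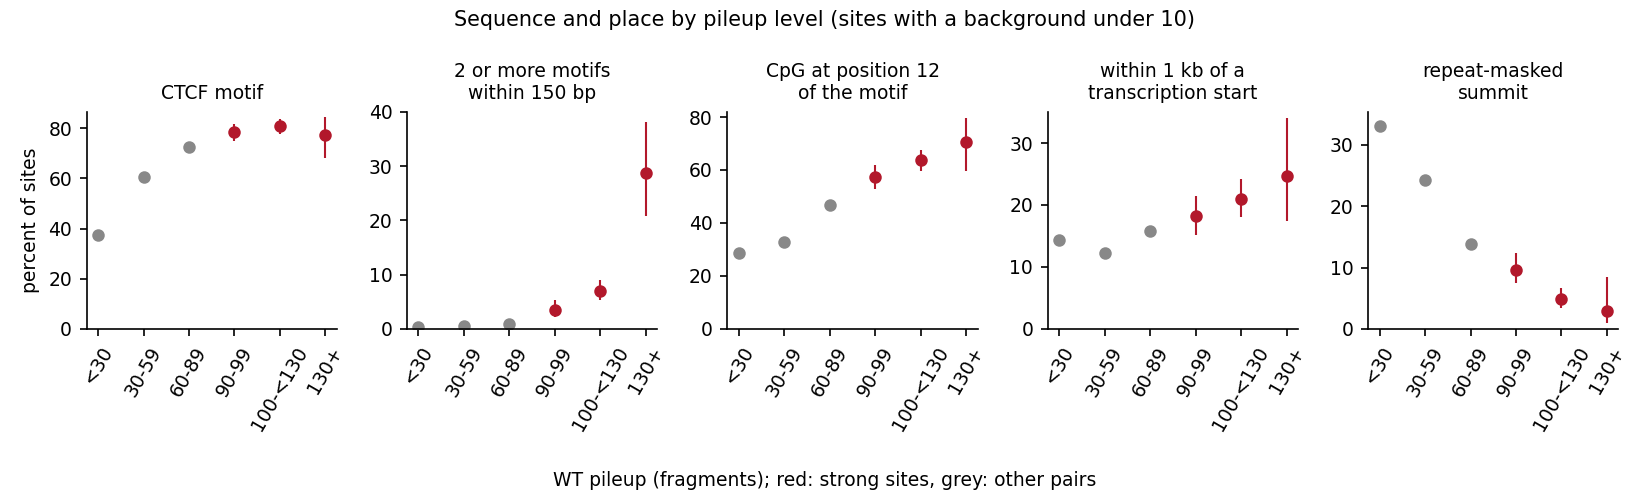
Share of sites (percent, with Wilson 95% intervals) by WT pileup in 6 classes, for sites with a background under 10. Grey points are pairs that were not strong, red points the strong sites. Motif share levels off near 80%, CpG at position 12 goes up in each class to 70.5%, the share with 2 or more motifs reaches 28.7%, promoters reach 24.8% and masked summits go down to 2.97%.

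Strong sites were found at promoters more often and in repeats less often than the other pairs. A promoter, meaning a start site of GENCODE vM21 within 1 kb of the summit, was present at 280 strong sites (20.1%, 18.1 to 22.3), at 15.8% of pairs with a WT pileup of 60 to 89 and at 13.9% of all pairs that were not strong. For 233 sites (16.7%) it belonged to a protein-coding gene, against 10.3%. Coding exons held 30 strong sites (2.15% against 1.70%), other exon sequence 77 (5.53% against 3.27%), introns 518 (37.2% against 41.2%), and 488 lay between genes (35.0%). Summit sequence was mostly repeat-masked at 100 strong sites (7.18%), against 13.9% at pairs with a WT pileup of 60 to 89 and 25.3% at all pairs that were not strong. The median distance to a start site was 4996 bp at strong sites and 7757 bp at the others. Among coding exons with a low background, *Ocel1* had 179 in *Setdb1* KO and 151 in WT (chr8:71371192-71372096) and *1500009C09Rik* 173 and 152 (chr15:82259308-82260004), both behind *Gdf15*. Strong sites also had closer CTCF neighbours of any strength: the nearest other peak was a median of 4.53 kb away in the *Setdb1* KO list and 5.65 kb in the WT list, against 7.51 and 10.2 kb for the other pairs.

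No strong site lay near the listed pluripotency, imprinted, Hox or histone genes. Within 10 kb, 1428 of 20807 protein-coding genes (6.9%) had a strong site, and 1100 of 28457 pairs near such genes (3.9%) were strong. Of 26 pluripotency genes none had one (0 of 51 pairs, upper Wilson limit 7.0%), and of 47 imprinted genes none (0 of 74 pairs, 4.9%), although both groups had CTCF pairs nearby. None of 42 Hox genes (23 pairs), 71 histone genes (23 pairs) or 13 globin and antigen receptor genes (14 pairs) had one. These counts are small enough that a share like that of all genes lies within each interval. Of 33 developmental transcription factor genes 1 did: *Cdx2*, which specifies trophectoderm, had a strong site 7.51 kb away with 125 in *Setdb1* KO and 94 in WT.

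Among genes that act with CTCF, on H3K9 methylation or on DNA methylation, most nearby strong sites sat at neighbouring genes. Of 17 CTCF and cohesin genes, 2 had one (2 of 37 pairs, 5.4%, 1.5 to 17.7). That near *Esco1*, a cohesin acetyltransferase, was the *Snrpd1* promoter (129 in *Setdb1* KO and 96 in WT). That near *Rec8*, the meiotic cohesin subunit, was at *Ipo4* (116 and 93). Of 22 genes in a list of H3K9 methyltransferases and their partners, HP1 proteins and DNA methyltransferases, 4 had one. These were 4 of 56 nearby pairs (7.1%, 2.8 to 17.0). The intervals of both lists include the strong share of pairs near all protein-coding genes, 3.9%. Of the genes of the second list named here, *Dnmt3b* and *Dnmt1* encode enzymes that methylate DNA, not H3K9. *Dnmt3b* had its site 1.99 kb from *Dnmt3c* (154 in *Setdb1* KO and 118 in WT), *Cbx5*, which encodes an HP1 protein, 9.22 kb away (128 and 109), and *Dnmt1* at the *Eif3g* promoter (127 and 102). Of 57 clustered protocadherin genes, 13 overlapped the window of a single site, 1 of 71 pairs, at the *Pcdhac1* promoter (chr18:37089668-37090178), with 127 in *Setdb1* KO and 95 in WT.

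The larger families among the lists had strong sites in different shares. Cytoplasmic ribosomal protein genes had 13 strong sites among 131 pairs (9.9%, 5.9 to 16.2), near 12 of 80 genes, against 3.9% (3.6 to 4.1) near all protein-coding genes. The site near *Rpl6* and *Hectd4* had 139 in *Setdb1* KO and 99 in WT. Zfp genes had 21 among 472 pairs (4.4%), with 3 near *Zfp423* (167 in *Setdb1* KO and 110 in WT at the highest), 1 in a coding exon of *Zfp385a* (152 and 125) and 1 in *Zfp385c* (119 and 91). Olfactory receptor genes had 2 of 139 pairs, near *Olfr71* (129 in *Setdb1* KO and 90 in WT) and *Olfr649* (116 and 90), for 1087 genes. By gene, counted within 10 kb, *Gse1* had 6 strong sites of 22 pairs and *Wwc2* 4 of 10. *Gm20388*, a read-through model of 4435 kb, had 54 of 200. These genes are on chromosome 8, where 13.3% of all pairs were strong. On other chromosomes, *2900026A02Rik* had 4 of 16, *Nmur1* 4 of 8 and *Trpm8* 4 of 9.

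Chromosome 8 held 320 of the strong sites, which were 13.3% of its 2397 pairs, against 1.27 to 3.83% on the other autosomes. That was 2.47 per Mb, against a range on the other autosomes of 0.174 on chromosome 13 (21 sites) to 0.95 on chromosome 11 (116 sites). The level of its pairs was also higher: the median pileup on chromosome 8 was 69 in *Setdb1* KO and 47 in WT, which is 1.25 and 1.24 times the median of the other autosomes. The mean background was raised too, at 4.30 in *Setdb1* KO and 4.01 in WT, 1.33 and 1.31 times. The ratio of *Setdb1* KO to WT, at a median of 1.38, lay within the range of the other autosomes (1.33 to 1.40). In 10-Mb windows of chromosome 8 the strong share ran between 2.52 and 20.8%. With each library scaled by the median of each chromosome, 1084 sites passed, 985 of them among the original sites, and chromosome 8 had 98 of these, 4.09% of its pairs against 2.56% elsewhere. The copy number of the chromosome in these cells was not tested. At its strong sites CpG at position 12 stood in 62.1% of motifs, against 61.3% on the other autosomes. A motif was found at 82.5% (78.0 to 86.3) against 77.3% (74.7 to 79.7). For 2 or more motifs the shares were 1.6% (0.67 to 3.6) against 8.5% (7.0 to 10.3). These shares were not matched for the higher pileups of chromosome 8.

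**Figure D5:**
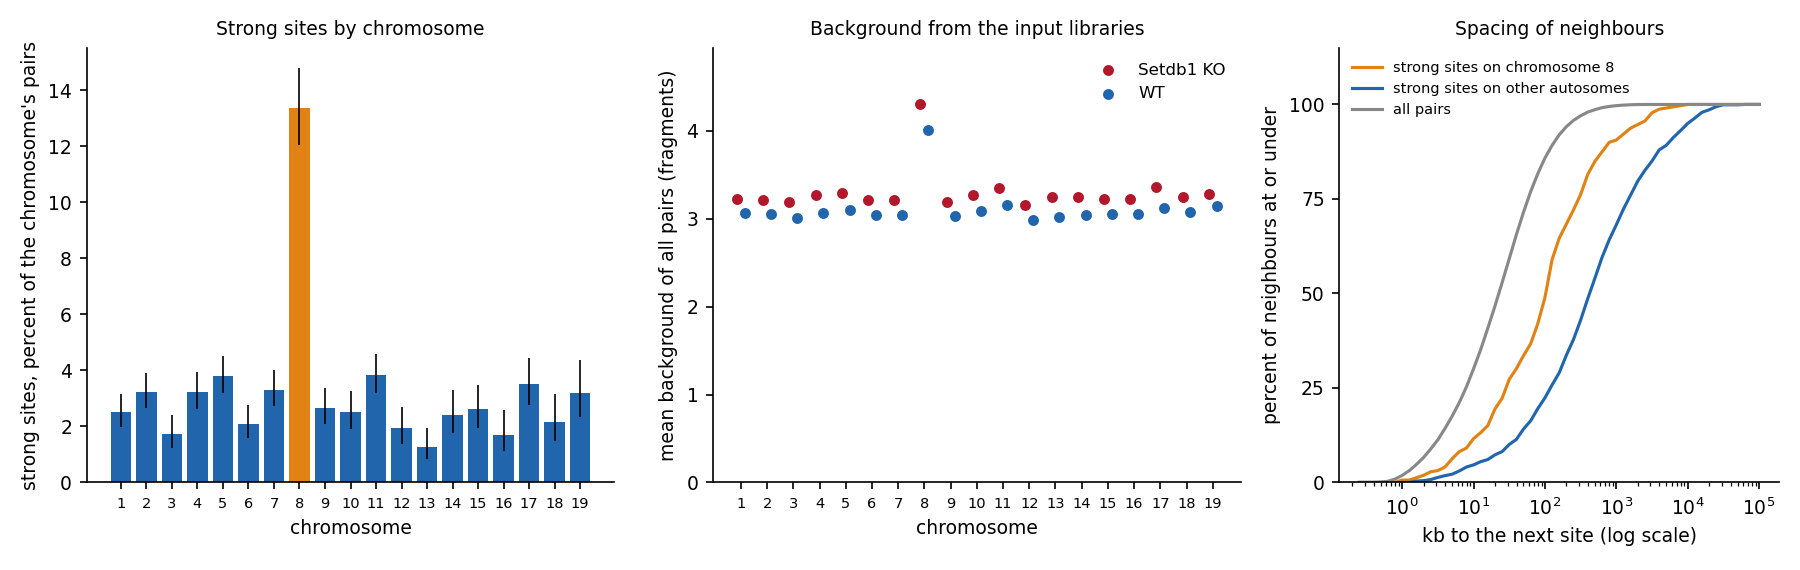
Left, strong sites as a percent of the CTCF pairs of each autosome with Wilson 95% intervals. Centre, mean background (fragments) of all pairs by autosome, *Setdb1* KO beside WT. Right, cumulative percent of gaps between neighbours by distance on a log axis, for strong sites on chromosome 8 (orange), strong sites on other autosomes (blue) and all pairs (grey). Chromosome 8 stands at 13.3% and at backgrounds of 4.30 in *Setdb1* KO and 4.01 in WT, and the median gaps are 102 kb, 426 kb and 22.7 kb in the order of the curves.

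Strong sites lay a median of 307 kb from the next one (274 to 345; quartiles 80.5 to 1152 kb; 1374 gaps), which was 102 kb on chromosome 8 and 426 kb on the other autosomes. The median for all pairs was 22.7 kb. A gap of 10 kb or less was found for 86 strong neighbours (6.26%), and 121 neighbours (8.81%) had no other pair between them, while the median was 11. The closest were 916 bp apart near *Nanos3*, a germ cell RNA-binding protein gene (142 in *Setdb1* KO and 105 in WT at the first, 144 and 94 at the second), both with their motif on the plus strand. The next were a pair 953 bp apart in *Gm20388* on chromosome 8 (127 and 101, then 120 and 106) and a pair 1384 bp apart near *Gm21190* on chromosome 5 (206 and 136, then 219 and 160), where the background was raised. The tightest run of 4 covered 12414 bp of *Trpm8*, the cold-sensing channel gene, on chromosome 1, with 160, 239, 173 and 243 in *Setdb1* KO and 161, 182, 173 and 185 in WT. Its sites were all at a background of 7.57 or more in both libraries.

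The widest gap, 52.2 Mb on chromosome 16, ran between *Lsamp*, a neural adhesion gene (114 in *Setdb1* KO and 96 in WT), and *Ripply3* (121 and 90). A gap of 29.8 Mb on chromosome 1 ran between *Rp1*, a photoreceptor gene (119 and 91), and *Dst*, a cytoskeletal linker gene (127 and 91). A gap of 29.7 Mb on chromosome 14 ran between *Sorbs3* (133 and 124) and *Klf12* (138 and 121).

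The directions of motifs at neighbouring strong sites had shares close to those of all neighbouring pairs. Of 856 strong neighbours with a motif at both, 206 faced each other (24.1%, 21.3 to 27.0), 444 pointed the same way (51.9%) and 206 away from each other (24.1%), against 23.8%, 51.3% and 24.8% of all neighbouring pairs. At up to 10 kb, 15 of 60 strong neighbours faced each other (interval 15.8 to 37.2%), against 21.1% of all pairs, and between 10 and 100 kb 18.5% (13.6 to 24.5) against 23.8%. Between 100 kb and 1 Mb, 26.1% of strong neighbours faced each other (22.0 to 30.7), against 32.0% (29.6 to 34.5) of all pairs at that distance. Loops were not analysed here.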

How the data were processed

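CTCF ChIP-seq peak lists of *Setdb1* KO and WT ESCs, 1 library each with its input, were used. Per the labels and the study's methods, the authors used Bowtie 1.2 with mm10 (GRCm38), keeping unique alignments, removed duplicates with Picard and called peaks on each library with MACS2 2.1.0. In the deposited lists the fold enrichment is a ratio of pileup to background, each plus 1. The authors' p-value and q-value stand as −log10 values. A deposited score holds the whole-number part of 10 times the −log10 q, and the summit is deposited as its distance in bp from the peak start. Other samples of the series were not analysed here.

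The whole-number pileup and the background were solved from fold enrichment and Poisson p (tolerance 0.001 on −log10 p; 100% of peaks in each list). A matrix of a 14 bp core with 3 bp of flank was built from 4000 pairs that were not strong sites (WT pileup 40 to 89), and a motif needed over 17.1 bits within 50 bp of the WT summit. With windows of 100 bp, the 95th percentile, or windows clear of peaks, the threshold was set anew in the same way. Sequence came from RefSeq GRCm38.p6 and genes from GENCODE vM21. A level of repeat masking of 50% in the window counted as masked. Both the pileup solution and the motif calls were first tried on simulated peaks and sequences.

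The sites to be named were the 12 with the highest summed pileup, the 3 highest and 3 lowest ratios, the closest neighbours, widest gaps and tightest run, the 4 highest of each class (promoter, coding exon, masked, no motif), up to 3 genes of each of 12 gene lists, and 3 sites on each side of the threshold. Others were chosen after their values were seen, as stated. Some sites that the rule names are not reported here. The members, this rule and the lists were chosen with earlier results of these data known. Shares have Wilson 95% intervals. Scripts ran in Python 3.11.15 with scipy 1.17.1, numpy 2.4.6, pysam 0.24.0, pandas 2.3.3 and matplotlib 3.10.9, and samtools 1.23.1 indexed the genome.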

Additional observations from a re-analysis of the deposited data

How the results depend on the processing

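No paired analysis was possible because 1 library per genotype was analysed, and no replicate could be left out. With thresholds of 130 in *Setdb1* KO and 110 in WT, 361 sites passed, with a median ratio of 1.22, a motif at 76.2%, a promoter at 22.4%, masked summits at 5.54%, CpG at position 2 in 13.8% and at position 12 in 66.9% of motifs, a median gap of 1117 kb, 27.7% of neighbours facing each other and 2 or more motifs at 15.8%. With thresholds of 100 and 80, 2669 sites passed, with a ratio of 1.26, a gap of 175 kb and 2 or more motifs at 4.57%. In a further setting the *Setdb1* KO pileup was divided by the median ratio, with a threshold of 90 in both lists and the ratio bounds applied after division. There 620 passed, with a ratio of 1.34 before division, a promoter at 17.9%, CpG at position 12 in 66%, a gap of 642 kb and 2 or more motifs at 9.19%.

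The motif share was 94.7% at the 95th percentile, where CpG at position 2 was 13%, 53.8% within 100 bp of the summit, and 88.6% with control windows clear of peaks, where 12.2% had 2 or more motifs. The promoter share was 14.8% within 500 bp of a start and 31.2% within 2 kb. Without chromosome 8 the median gap was 426 kb and 2 or more motifs stood at 8.48%. Scaled by chromosome median, the ratio was 1.24, the gap 468 kb and the share with 2 or more motifs 8.76%. The last 2 settings, the clear windows, leaving out sites with a background of 10 or more and every alternative for paired motifs were added after seeing the data. Of the other 96 values, the numbers of sites, which ran from 1073 without chromosome 8 to 1393, stayed within 1.5 times the number reported, and shares and medians within the 95% interval of the value reported. At pileups near 100 the counting error of a single ratio is about as large as the differences between most strong sites, so single ratios close to the median were not told apart at this depth.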
